A study of Mus musculus with 6 samples.

Results

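The genes described here are the 164 rows of a liver expression table that stood apart upward in the libraries labelled Akr1d1 knockout. The table has 12792 rows, of which 12410 had a value above 0 in all 6 libraries. A gene was selected where the lowest of its 3 values in the libraries labelled KO was at least 1.3 times the highest of its 3 values in the libraries labelled WT. These members were chosen on the KO and WT values themselves, so those values describe the set, are not tested, and support no statement that the groups differ. The quotient of the lowest KO value and the highest WT value is called the margin below. The share of rows above 0 in all libraries that met the rule was 1.32%, and nothing is read from it, since it is the rule.

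The study sequenced polyadenylated RNA from livers of mice that carried tumours grown from Hepa 1-6, a mouse hepatoma line. The group labelled KO is Akr1d1 knockout with 3 libraries, and the group labelled WT is wild type with 3 libraries, and all 6 came from tumour-bearing animals. The strain, age and sex of the mice, how the knockout was made, and whether the sampled liver held tumour are not stated in the sources used here. The labels do not tell whether each library is from its own animal, so the spread between libraries of a group may be technical. Each value is a ratio, the expression of a gene in a library over that gene's own mean, which the values themselves show to span 7 libraries, with 1 not analysed here. Levels can therefore be compared between libraries for a gene, but not between genes. Relative depth, estimated from rows that hold a 0, was 1.04, 1.03 and 1.07 in KO replicates 1 to 3, against 0.972, 0.865 and 1.02 in WT replicates 1 to 3.

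*Akr1d1* encodes the steroid 5-beta-reductase of the liver, which reduces bile acid intermediates and steroid hormones such as glucocorticoids and androgens. The pathways known for it are bile acid synthesis, steroid clearance, glucocorticoid receptor signalling and, through bile acids, cholesterol synthesis. A tumour-bearing liver also holds hepatocytes, bile duct cells, stellate cells, endothelium, resident and recruited leukocytes and possibly tumour cells, and each brings its own transcripts to a bulk library. In such a bulk sample, a change in the number of cells of a type and a change in RNA per cell cannot be told apart.

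*Akr1d1* itself (chromosome 6, 37530173 to 37568815, plus strand, GRCm38) was among the 164 members, which goes against the labels. It had 1.22, 1.21 and 1.35 in the libraries labelled KO, against 0.826, 0.697 and 0.881 in those labelled WT. All 3 libraries labelled KO were above all 3 labelled WT. The means were 1.26 ± 0.0787 in the libraries labelled KO and 0.801 ± 0.0944 in those labelled WT (SD, n = 3 each), a fold of 1.57. A gene-level value does not show which part of the gene was targeted or whether a transcript is functional. All directions here are between libraries as labelled.

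The mirrored rule, with the lowest WT value at least 1.3 times the highest KO value, was met by 70 rows (0.564%). Without any margin, every KO value lay above every WT value in 1091 rows (8.79%) and below in 1267 rows (10.2%). Rows without overlap were thus more often lower in KO, while rows apart by the margin were more often higher in KO. The 6 libraries can also be put into 2 trios that mix the labels, in 9 ways, each read in both directions. These 18 mixed counts ranged between 15 and 48, with a median of 23.5, as a description of these libraries and with no test. The highest were 48 rows for the trio of KO replicates 1 and 3 with WT replicate 3, and 46 for the trio of KO replicates 1 and 2 with WT replicate 3. The trio of KO replicates 1 and 2 with WT replicate 1 gave 45. The count of 164 in the trio labelled KO was above each of the 18 mixed counts, and so was the mirrored count of 70.

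**Figure D1:**
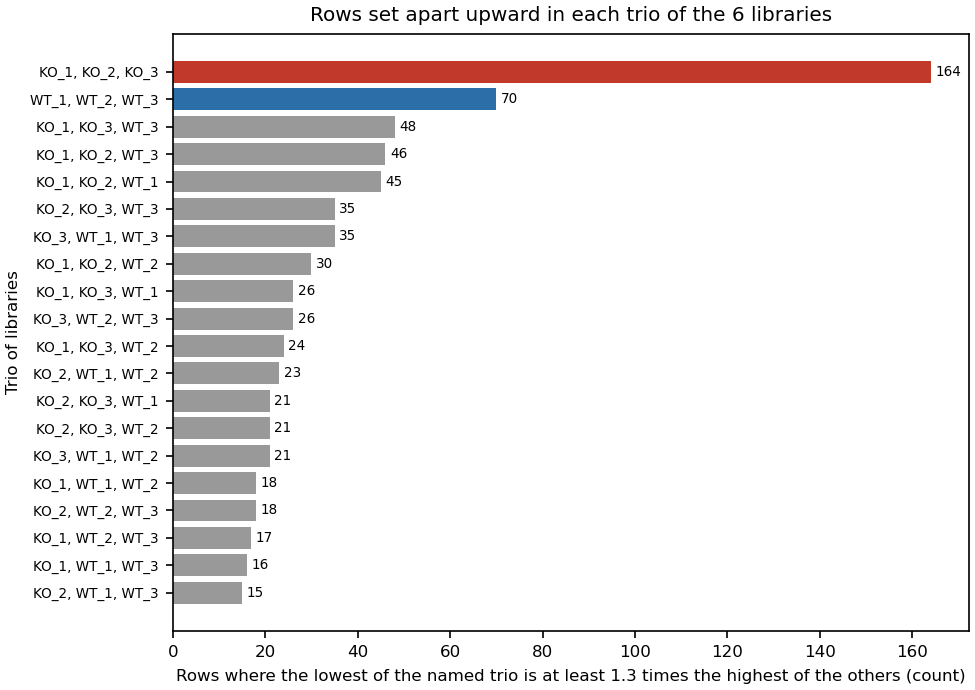
Number of rows (horizontal axis, count) in which the lowest of the 3 libraries named on the vertical axis was at least 1.3 times the highest of the other 3, with the KO trio in red, the WT trio in blue and mixed trios in grey. The KO trio had 164 rows, the WT trio 70 and the mixed trios 15 to 48.

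The KO trio also had the highest count at margins of 1.2, 1.5 and 2. At a margin of 1.2 the count was 245 in the KO trio and 136 in the WT trio, against 27 to 95 in the mixed trios. At 1.5 it was 72 in the KO trio and 28 in the WT trio, against 5 to 20. At 2 it was 21 in the KO trio and 5 in the WT trio, against 0 to 8, so that a mixed trio then exceeded the WT trio. With no margin the WT trio had the highest count, as given above, and the mixed trios gave 349 to 880 rows. Leaving out 1 library makes the rule easier to meet: the count was 255 without KO replicate 2, 328 without KO replicate 3, 300 without WT replicate 1, 269 without WT replicate 2 and 378 without WT replicate 3. It was 239 without KO replicate 1, and all 164 members met the rule in each of these.

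A fit over the whole table with limma, on log2(value + 0.1), called 2 of 12578 rows at an adjusted p under 0.05 (0.0159%), both higher in KO. At an unadjusted p under 0.05, 818 rows were higher and 696 lower. Neither called row can be a member, because both were listed at 0 in all 3 libraries labelled WT. *Tnni2*, a troponin of fast skeletal muscle, was listed at 2.36, 2.38 and 2.26 in the libraries labelled KO (limma adjusted p = 1.45e-05), values that match very few reads. So 0 of the 164 members passed this test over all rows. The count of calls was 1 without KO replicate 1 or WT replicate 2, and 4 without KO replicate 2 or WT replicate 3.

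Most members lay close to the threshold. The margin was 1.3 to 1.5 in 92 members, 1.5 to 2 in 51, 2 to 3 in 16 and 3 or more in 5, with a median of 1.47. The fold, which is the KO mean divided by the WT mean, had a median of 2.16 and ranged between 1.44 and 8.71. Just inside the threshold lay *Lamb3*, *S100a11* and *Esf1*, with margins of 1.303, 1.302 and 1.301. Just outside lay *Slc44a4*, *Sulf2* and *Lgalsl*, with margins of 1.2997, 1.2989 and 1.2987. The members' median value was 1.35, 1.42 and 1.34 in KO replicates 1 to 3, against 0.690, 0.654 and 0.663 in WT replicates 1 to 3. The highest KO value of a member fell in KO replicate 1 for 41 members, in KO replicate 2 for 73 and in KO replicate 3 for 50. Within the libraries labelled KO, the highest value was more than 2 times the lowest in 18 members (10.98%), against 8.73% of all rows above 0. Within those labelled WT it was so in 45 members (27.4%), against 9.49% of all rows above 0.

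The member with the largest margin was *Ubd* (chromosome 17, 37193892 to 37196095, plus strand), which encodes the ubiquitin-like modifier FAT10, inducible by interferon-gamma and tumour necrosis factor. It had 3.01, 1.67 and 1.41 in the libraries labelled KO, against 0.214, 0.180 and 0.305 in those labelled WT. KO replicate 1 stood well above the other KO libraries, and the groups were separated by a margin of 4.62 (fold 8.71). *Osbpl3* (chromosome 6, 50293330 to 50456201, minus strand), an oxysterol-binding protein relative that works at membrane contact sites, had 1.85, 2.08 and 1.92 in the libraries labelled KO, against 0.428, 0.346 and 0.162 in those labelled WT. Its KO libraries were close to each other, at a mean of 1.95 ± 0.117, against 0.312 ± 0.136 in WT (SD, n = 3 each). *Ly6d* (chromosome 15, 74762056 to 74763620, minus strand), a surface protein of the Ly6 family known from B-cell progenitors, had 1.56, 2.35 and 1.65 in KO, against 0.428, 0.399 and 0.428 in WT.

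*Omd* (chromosome 13, 49582462 to 49592822, plus strand), the matrix proteoglycan osteomodulin, had 1.09, 2.46 and 2.1 in KO, against 0.210, 0.353 and 0.0994 in WT, so KO replicate 1 was the lowest of its group. *Asns* (chromosome 6, 7675169 to 7693254, minus strand), asparagine synthetase, had 1.45, 2.39 and 1.91 in KO, against 0.300, 0.494 and 0.218 in WT, a fold of 5.68. *Jchain*, the joining chain of polymeric immunoglobulins, had 2.13, 2.53 and 0.955 in KO, against 0.191, 0.214 and 0.362 in WT. KO replicate 3 was thus less than any other KO library for *Jchain*, yet above all WT libraries. *6030419C18Rik*, a row with no settled gene name, had a margin of 3.52 and is left out of the ranking that follows. The remaining members among the 15 named genes with the largest margins were *Mab21l3*, *Dntt* (the terminal transferase of immature lymphocytes), *Tesc* (the calcium-binding tescalcin), *Cd36* (the fatty acid translocase), *Cyp2d12* (a cytochrome P450), *Ctcfl* (the testis relative of the insulator protein CTCF), *Pls1* (an actin-bundling plastin), *Kbtbd11* and *Mfsd2a* (a carrier of lysophosphatidylcholine). Their folds ranged between 2.96 for *Kbtbd11* and 6.86 for *Cyp2d12*.

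**Figure D2:**
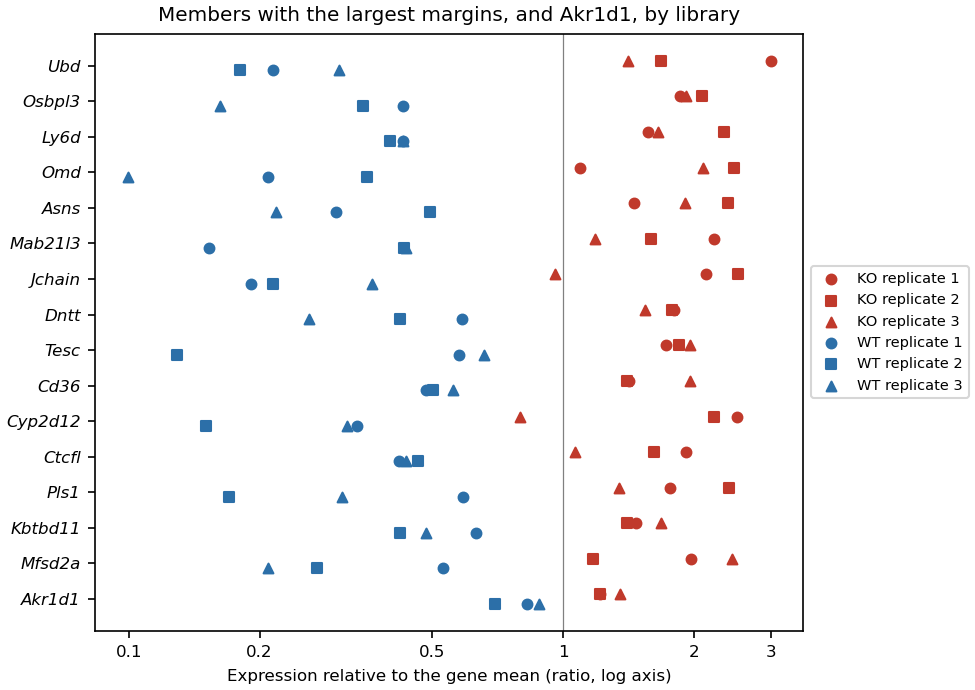
Values of the 15 named members with the largest margins and of Akr1d1 (vertical axis) in each library, as a ratio to the gene mean on a log axis, with KO libraries in red, WT libraries in blue and a marker shape per replicate. For each gene all red points lie right of its blue points, as the rule requires, and the KO spread is narrow for Osbpl3 (1.85 to 2.08) and wide for Cyp2d12 (0.794 to 2.51).

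To see what the members do, 122 of the 164 were put by hand into 13 classes of function or source, and 42 were left unclassed. The classes were written after the members were known, so their sizes describe the set and are not tested. The largest class, with 17 members, was lipid handling. Besides *Osbpl3*, *Cd36* and *Mfsd2a* it held *Cyp4a14*, a fatty acid hydroxylase of peroxisome proliferator responses, *Pltp*, the phospholipid transfer protein, *Elovl5*, an elongase of polyunsaturated fatty acids, *Hcar2*, the receptor for beta-hydroxybutyrate and niacin, and *Mboat1*, a lysophospholipid acyltransferase. *Cd36* (chromosome 5, 17781690 to 17888801, minus strand) had 1.41, 1.40 and 1.96 in KO, against 0.484, 0.502 and 0.557 in WT. *Mfsd2a* had 1.96, 1.17 and 2.44 in KO, against 0.528, 0.272 and 0.209 in WT. *Elovl5* had 1.35, 1.44 and 1.32 in KO, against 0.796, 0.730 and 0.650 in WT. The separation was thus wide for *Cd36*, at a margin of 2.51, and narrower for *Elovl5*, at 1.66, where the libraries of each group lay close together.

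*Pltp* had 1.47, 1.47 and 1.48 in KO, against 0.849, 0.542 and 0.585 in WT. *Fabp2*, the intestinal fatty acid-binding protein, had 1.23, 1.11 and 1.36 in KO, against 0.802, 0.791 and 0.629 in WT. *Cidec*, a lipid droplet protein, stands in 2 rows of the table: its member row had 1.31, 1.5 and 2.14 in KO, against 0.6, 0.648 and 0.346 in WT, while its other row had 0.644, 0.682 and 1.13 in KO, against 1.1, 1.2 and 1.04 in WT. The direction of *Cidec* therefore depends on which row is read. Of the fixed lists, the list of fatty acid uptake, binding and lipid droplet genes had 2 members among 21 measured (*Cd36* and *Fabp2*), and fatty acid and triglyceride synthesis had 2 among 31 (*Elovl5* and *Rdh11*). The count in the first list was 4 without KO replicate 3 or WT replicate 2. In the second it was 8 without WT replicate 1 and 4 without WT replicate 2. The list of peroxisome proliferator targets and fatty acid oxidation had 1 among 34, *Cyp4a14*. These list counts are to be read beside the 1.29% of all uniquely named rows that were members.

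The class of cytochrome P450, major urinary protein and organic ion carrier genes held 9 members and had the highest class median among classes of 3 or more, a fold of 3.53. It comprised *Cyp2d12*, *Cyp2c39*, *Cyp2c40*, *Cyp2c69*, *Cyp2a22*, *Mup6*, *Mup19*, *Slc22a3* and *Slc22a27*. In 6 of the 9 the highest value fell in KO replicate 3. *Cyp2c40* (chromosome 19, 39767071 to 39812814, minus strand) had 1.52, 1.01 and 1.82 in KO, against 0.320, 0.264 and 0.604 in WT. *Cyp2c69* had 1.45, 0.932 and 1.80 in KO, against 0.343, 0.190 and 0.638 in WT. In both genes KO replicate 2 was lowest among the KO libraries and WT replicate 2 lowest among the WT libraries.

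*Cyp2c39* had 1.00, 1.6 and 2.28 in KO, against 0.186, 0.682 and 0.632 in WT. *Slc22a27*, an organic anion carrier, had 0.970, 1.69 and 2.71 in KO, against 0.149, 0.334 and 0.705 in WT, so both groups spread widely. *Cyp2c39*, *Cyp2c40* and *Cyp2c69* are neighbours on chromosome 19, with gaps of 198542 and 30000 bases, and reads of such close relatives may be split between them, so they are not independent observations. The list of female-biased liver genes, which are patterned by growth hormone in mouse liver, had 5 members among 19 measured (26.3%), against 1.29% of all uniquely named rows. They were *Cyp2c40*, *Cyp2c39*, *Atp6v0d2*, *Cyp2c69* and *Slc22a27*, plus *Cyp2a22* under a shared name. The male-biased list had 0 among 23 measured, from which nothing is read at a share of 1.29%, with 1 gene under the mirrored rule. The mean ratio of the female-biased list was 0.962, 1.31 and 1.27 in KO replicates 1 to 3, against 0.844, 0.640 and 0.819 in WT replicates 1 to 3, and that of the male-biased list was 0.970, 0.920 and 0.892 in KO, against 0.950, 1.13 and 1.16 in WT. The female-biased mean includes its 5 members, which the rule itself sets apart, while the male-biased list has 0. The sex of the animals is not stated in the sources used here. On the Y chromosome, 4 uniquely named rows were above 0 in all 6 libraries and 0 of them were members, but such ratios carry no level. The part of sex in these values was not tested.

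The lists of pathways known for *Akr1d1* held 6 members among 116 measured genes (5.17%), against 1.29% of all uniquely named rows. Apart from *Akr1d1* these were *Cyp7a1*, the rate-limiting enzyme of bile acid synthesis, *Cyp8b1*, the sterol 12-alpha-hydroxylase, *Idi1* and *Fdps*, enzymes of the isoprenoid steps of cholesterol synthesis, and *Lcn2*, a secreted lipocalin that stood in the list of glucocorticoid targets. *Cyp7a1* had 0.862, 2.57 and 1.6 in KO, against 0.515, 0.6 and 0.481 in WT. Its highest KO library was 2.98 times its lowest, against 1.25 times among its WT libraries. *Cyp8b1* had 1.33, 1.33 and 1.36 in KO, against 0.738, 0.936 and 0.727 in WT. Of the bile acid synthesis list 3 of 22 measured genes were members and 2 met the mirrored rule. Every KO value lay above every WT value in 6 of the 22 and below in 5, against 8.79% and 10.2% of all rows. The mean ratio of that list was 0.990, 1.02 and 1.02 in KO, against 0.935, 1.02 and 1.04 in WT, and overlapped between the groups. Of the cholesterol synthesis list 2 of 22 were members and 0 met the mirrored rule. Every KO value lay above every WT value in 10 of those 22 cholesterol genes, against 8.79% of all rows. The cholesterol count was 5 without KO replicate 3 and 4 without WT replicate 1. The glucocorticoid target list had 1 member among 21 measured. The lists of bile acid and sterol transporters (19 measured), bile acid receptors and feedback (10) and steroid-metabolizing enzymes (22) had 0 members each. Beside a share of 1.29%, nothing is read from a 0 in lists of this size.

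Annexins and S100 proteins bind calcium and membranes, and annexin A2 pairs with S100A10 beneath the plasma membrane, where the giant protein AHNAK is a known partner. Of 20 measured genes of this family, 4 were members (20%), against 1.29% of all uniquely named rows. They were *S100a10*, *Anxa5*, *Anxa2* and *S100a11*. The mirrored rule was met by 0 of the 20, against 0.55% of those rows, so nothing is read from that 0. *Anxa2* (chromosome 9, 69453620 to 69491795, plus strand) had 1.33, 1.25 and 1.22 in KO, against 0.904, 0.768 and 0.759 in WT. *S100a10* (chromosome 3, 93555080 to 93564643, plus strand) had 1.41, 1.25 and 1.21 in KO, against 0.809, 0.886 and 0.771 in WT. Both had KO replicate 1 as the highest library and small folds, 1.56 for *Anxa2* and 1.57 for *S100a10*. *Ahnak*, named after its values were seen, had 1.35, 1.27 and 1.25 in KO, against 0.850, 0.923 and 0.749 in WT.

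The median log2 fold of the family's 20 measured genes was 0.04, against -0.01 over all uniquely named rows, and 12 of the 20 had a fold above 1. The family's mean ratio was 1.14, 1.21 and 0.962 in KO replicates 1 to 3, against 0.915, 0.986 and 0.973 in WT replicates 1 to 3, and overlapped between the groups. *S100a11* and *S100a10* lie 28793 bases apart on chromosome 3. The wider class of calcium-binding and membrane-cortex proteins held 12 members, among them *Cav1*, the coat protein of caveolae, *Plp2*, *Lad1*, *Ank2* and *Rhof*.

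Promoters of the members were searched for short motifs of known stress, growth and interferon responses, on both strands over the 250 bases before the RefSeq start. RefSeq promoters (GRCm38.p6) were found for 108 member genes and for 9346 measured genes. The activator protein 1 site, TGANTCA, was in 9 member genes (8.33%), against 5.85% of measured genes, and the shared core of ATF4 and C/EBP sites, TGATGNAA, was in 8 (7.41%), against 2.49%. The core of the interferon-stimulated response element was in 1, *Ddx60* (0.926%), against 3.21%. The E-box CACGTG was in 10 (9.26%), against 9.91%, and the direct repeat 1 of nuclear receptors in 0, against 0.0428%. The 2 most frequent of these, the E-box and the activator protein 1 site, share 2 genes, *S100a11* and *Tnfaip3*. These shares are descriptions, and a match is neither a shown binding site nor a cause. The 3 windows below show the amino acid stress-type core of *Asns* and the activator protein 1 sites of *Anxa2* and *S100a11*, with the motif in capitals, each read 5′ to 3′ on the strand of the gene.
Asns (chr6:7693225-7693359, minus strand): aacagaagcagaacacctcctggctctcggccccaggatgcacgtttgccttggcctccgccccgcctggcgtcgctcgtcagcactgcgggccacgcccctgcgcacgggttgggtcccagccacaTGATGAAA
Anxa2 (chr9:69453533-69453619, plus strand): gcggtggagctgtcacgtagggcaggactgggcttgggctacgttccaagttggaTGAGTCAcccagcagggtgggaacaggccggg
S100a11 (chr3:93520346-93520487, plus strand): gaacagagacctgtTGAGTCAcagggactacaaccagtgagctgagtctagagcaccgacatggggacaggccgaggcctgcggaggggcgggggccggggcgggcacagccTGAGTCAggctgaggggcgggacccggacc
The core of *Asns* begins 23 bases before its RefSeq start, but the window runs 30 bases past the more upstream GENCODE start, so the core lies inside the gene as GENCODE draws it. The site of *Anxa2* begins 95 bases before its RefSeq start and the 2 sites of *S100a11* begin 136 and 38 bases before theirs, and all of them lie before the GENCODE start too.

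Genes of the extracellular matrix, stroma and basement membrane made up 11 members. *Col1a1* (chromosome 11, 94936224 to 94953042, plus strand), the main chain of fibrillar type I collagen, had 1.28, 1.35 and 1.32 in KO, against 0.729, 0.738 and 0.794 in WT. The spread within each group was small beside the distance between them, at a mean of 1.32 ± 0.0348 in KO and 0.754 ± 0.0350 in WT (SD, n = 3 each). *Postn*, the matricellular protein periostin, had 1.39, 1.21 and 1.34 in KO, against 0.762, 0.629 and 0.925 in WT. *Sh3pxd2b*, a podosome scaffold, had 1.40, 1.53 and 1.69 in KO, against 0.711, 0.584 and 0.675 in WT. These 3 were the members among the 65 measured genes of the matrix list (4.62%, against 1.29% of all uniquely named rows). That count was 9 without KO replicate 1. *Lamb3*, which encodes a laminin chain of epithelial basement membranes, was also a member, with a fold of 1.44, as was *Snai2*, a transcription factor of epithelial to mesenchymal transition, with 2.77.

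Cell cycle, chromosome and DNA repair genes made up 10 members, 7 of them highest in KO replicate 2. *Cenpm*, a kinetochore protein, had 1.93, 1.99 and 1.25 in KO, against 0.607, 0.614 and 0.330 in WT. *Kif20a*, a kinesin of cytokinesis, had 1.27, 1.87 and 1.16 in KO, against 0.847, 0.641 and 0.811 in WT. *Mcm2*, a subunit of the replicative helicase, had 1.26, 1.33 and 1.14 in KO, against 0.868, 0.833 and 0.853 in WT. *Kif20a* and *Mcm2* were the only members among 65 measured genes of the cell cycle list (3.08%, against 1.29% of all uniquely named rows). The mean ratio of that list was 1.2, 1.12 and 0.980 in KO replicates 1 to 3, against 1.06, 0.928 and 0.806 in WT replicates 1 to 3. The list's count was 4 without KO replicate 2, 7 without KO replicate 3, 8 without WT replicate 1 and 6 without WT replicate 2. *Gtse1*, a mitotic regulator of p53, was the 1 member among 24 measured p53 targets, to be read beside the same 1.29%.

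Interferon and innate sensing genes made up 10 members, 7 of them highest in KO replicate 1. *Cd274* (chromosome 19, 29367455 to 29388095, plus strand), the checkpoint ligand PD-L1, had 1.62, 1.32 and 1.31 in KO, against 0.687, 0.772 and 0.760 in WT. *Ubd* and *Cd274* were the members among 34 measured genes of the interferon-gamma and presentation list (5.88%, against 1.29% of all uniquely named rows). The mean ratio of that list was 1.59, 0.907 and 0.951 in KO replicates 1 to 3, against 0.921, 0.764 and 0.952 in WT replicates 1 to 3, so the list as a whole was high in KO replicate 1 alone. Its count was 4 without KO replicate 2 or without WT replicate 3. None of the 43 measured genes of the type I interferon list was a member, and beside a share of 1.29% nothing is read from that 0. In 10 of the 43, every KO value lay above every WT value, against 8.79% of all rows. *Ddx60*, a helicase of antiviral responses, *Nlrp3*, the inflammasome sensor, *Tnfaip3*, a brake on NF-kappaB signalling, and *Slfn1* had folds of 2.01, 1.85, 1.61 and 3.82.

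Genes largely restricted to leukocytes made up 14 members. *Ms4a4b*, a T-cell surface protein, had 2.36, 1.2 and 1.53 in KO, against 0.211, 0.473 and 0.6 in WT. *Cxcr6*, a chemokine receptor of liver-resident lymphocytes, had 1.17, 1.29 and 1.45 in KO, against 0.798, 0.512 and 0.757 in WT. *Klrk1*, the natural killer receptor NKG2D, had 1.21, 1.09 and 1.57 in KO, against 0.769, 0.778 and 0.583 in WT. KO replicate 1 was highest for *Ms4a4b*, and KO replicate 3 for *Cxcr6* and *Klrk1*. *Prkcq*, a kinase of T-cell receptor signalling, *Tnfrsf18*, the receptor GITR, *Cd48*, *S1pr4* and *Ikzf1*, a transcription factor of lymphocytes, were further members, with folds of 1.67 for *Ikzf1* to 2.37 for *Prkcq*.

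The lists for cell types gave the following counts, to be read beside the 1.29% of all uniquely named rows that were members. Of 19 such lists, 10 had a member under a name of its own, and 12 such members stood in any of them, while the adipocyte list held *Cidec* under its shared name. The T cell list had 2 members among 23 measured (*Ms4a4b* and *Cxcr6*), with 1 gene under the mirrored rule. Its member count was 4 without KO replicate 2, 5 without WT replicate 1 and 4 without WT replicate 2. The list of natural killer and cytotoxic lymphocytes had 1 among 14, that of plasma cells 1 among 9 (*Jchain*), and that of neutrophils 1 among 13 (*Lcn2*). *Jchain* does not stand for its list: 3 of the 9 plasma cell genes had a fold above 1, and the median log2 fold was -0.175. Every KO value lay below every WT value in 3 of the 9 and above in 1, against 10.2% and 8.79% of all rows. *Ly6d* was the 1 member in each of the B cell list and the dendritic cell list, with 15 measured genes each, so the same gene gave both counts. It was also the 1 member among 22 measured genes of the list of oncofetal liver and hepatoma genes. Of those 22, 15 had a fold above 1, and the median log2 fold was 0.335. That list's mean ratio was 1.14, 1.34 and 0.932 in KO, against 0.950, 0.759 and 0.956 in WT, and overlapped. The part of tumour cells was not tested. The T cell list had a mean ratio of 1.24, 1.08 and 1.07 in KO replicates 1 to 3, against 0.806, 0.907 and 0.907 in WT replicates 1 to 3, a mean that includes the 2 members.

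The lists of Kupffer cells (21 measured) and of monocytes and inflammatory macrophages (42 measured) had 0 members each. At a share of 1.29% over all uniquely named rows, nothing is read from a count of 0 in lists of this size. Every KO value lay above every WT value in 7 of the 21 Kupffer genes and below in 1, against 8.79% and 10.2% of all rows. For the 42 monocyte and macrophage genes it was 6 above and 1 below, beside the same shares, and 37 had a fold above 1. The mean ratio of the monocyte and macrophage list was 1.24, 1.11 and 1.03 in KO, against 0.926, 0.821 and 0.940 in WT. The list of bile duct and ductular genes had 2 among 25 (*Anxa5* and *Anxa2*, both also counted in the annexin list), a count of 8 without KO replicate 3, where its mean ratio was 0.909, against 1.19 and 1.3 in KO replicates 1 and 2. Its mean ratio in WT replicates 1 to 3 was 0.985, 0.760 and 0.894. The list of stellate cells and fibroblasts had 2 among 33 (*Col1a1* and *Cd34*), with 1 gene under the mirrored rule, and its count was 6 without KO replicate 1. The endothelial list had 1 among 37, *Lyve1*, a hyaluronan receptor of sinusoidal endothelium, and the erythroid list 1 among 9, *Car2*. Of the 37 endothelial genes 11 had a fold above 1, and the median log2 fold was -0.105. Every KO value lay below every WT value in 5 of the 37 and above in 2, against 10.2% and 8.79% of all rows.

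None of 35 measured hepatocyte genes was a member, and beside a share of 1.29% nothing is read from that 0. In 11 of the 35, every KO value lay below every WT value, against 10.2% of all rows. The mean ratio of the hepatocyte list was 0.978, 0.962 and 0.949 in KO replicates 1 to 3, against 1.00, 1.06 and 1.05 in WT replicates 1 to 3. The liver label could not be checked by level, since ratios to a gene's own mean carry no level between genes, and 0 genes of the list stood in a row that held a 0. The part of these cell lists in the values of the members was not tested.

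**Figure D3:**
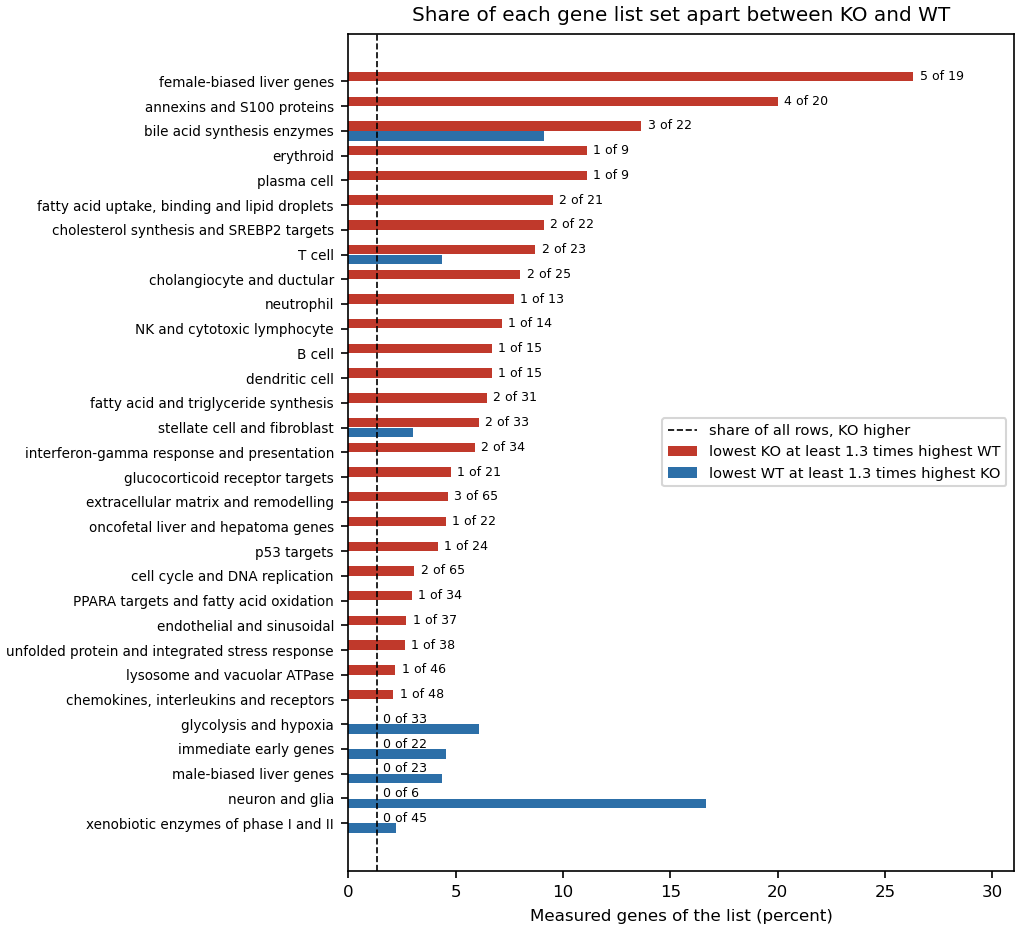
Share (percent, horizontal axis) of the measured genes of each list (vertical axis) that met the rule in KO (red, with the count beside the bar) or the mirrored rule in WT (blue), for the lists with at least 1 gene in either. The dashed line is the 1.32% of all rows above 0 that met the rule in KO, and the longest red bars, 5 of 19 female-biased genes and 4 of 20 annexins and S100 proteins, rest on few genes.

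Across all 49 lists, 37 of 1147 measured genes were members and 9 met the mirrored rule. Over all uniquely named rows, 157 of 12192 were members (1.29%) and 67 met the mirrored rule (0.55%). The share of members was thus higher over the lists as a whole than over all rows, and single lists are to be read beside both. The mean ratio was higher in every KO library than in every WT library for 13 lists, members included, and lower for 2. Counting genes under shared names too, 39 members stood in at least 1 list and 125 in none, and 22 lists had no member. Of 1166 list genes that entered the limma fit, 1 was called higher (*Tnni2*) and 0 lower.

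Members outside these functions were varied. Transcription regulators and DNA-binding proteins numbered 15, including 6 zinc finger genes by name such as *Zfp518a* and *Zfp532*, the corepressor *Hr* and *Jdp2*, a repressor of activator protein 1. *Ctcfl* had 1.91, 1.62 and 1.07 in KO, against 0.419, 0.463 and 0.435 in WT. Its antisense neighbour *Ctcflos* overlaps part of it on chromosome 2 and had 1.66, 1.39 and 1.54 in KO, against 0.420, 0.317 and 0.727 in WT. The sources used here do not state if counting was stranded, so reads from the stretch that these 2 genes share cannot be told apart.

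Genes known mainly from axons, glia, melanocytes or channels numbered 7, among them *Dct*, an enzyme of melanin synthesis, *Aqp4*, a water channel, *Robo1* and *Sema3b*, guidance molecules, and *Cntnap1*, with folds of 2.15 for *Robo1* to 3.03 for *Dct*. Non-coding RNAs numbered 6, among them *Rpph1*, the RNA of ribonuclease P, which had 2.91, 1.41 and 1.03 in KO, against 0.491, 0.268 and 0.690 in WT, and *Pvt1*. *Rpph1* RNA has no poly(A) tail, while the libraries were made from polyadenylated RNA. Cilium and dynein genes numbered 3, *Ttc30b*, *Dync2li1* and *Dynlt1b*.

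Amino acid and one-carbon metabolism had 2 members, *Asns* and *Bhmt*. *Bhmt*, which uses betaine to remethylate homocysteine, had 1.40, 1.45 and 1.27 in KO, against 0.776, 0.788 and 0.758 in WT, so its WT libraries were nearly equal. *Asns* was the 1 member among 38 measured genes of the unfolded protein and integrated stress response list, beside 1.29% of all uniquely named rows. The median log2 fold of that list was -0.07, against -0.01 over those rows. The 42 unclassed members ranged between folds of 1.48 and 6.93 and included *Ly6d*, *Mab21l3*, *Kbtbd11*, *Treh* (trehalase), *Fhit*, *Mapk13* (a p38 kinase), *Gprc5b*, *Atp6v0d2*, *Car2* (a carbonic anhydrase), *Serpina7* (thyroxine-binding globulin), *P2ry14* and *Esf1*. Genes in these classes outside the 15 largest margins and the fixed lists were named after their values were seen.

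**Figure D4:**
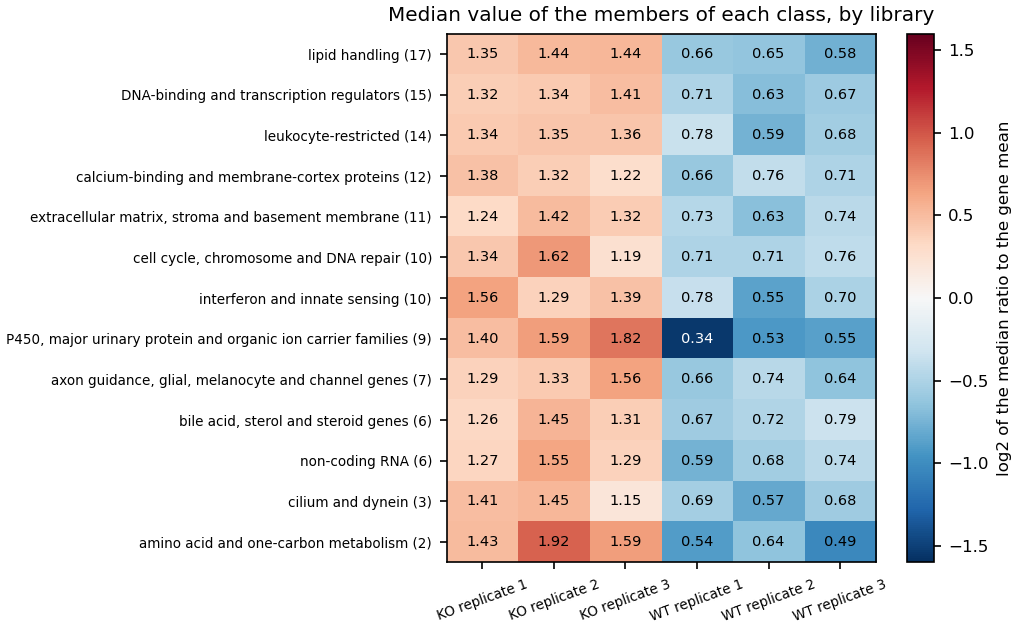
Median value of the members of each class (rows, with the number of members) in each library (columns), as a ratio to the gene mean printed in the cell and as its log2 in colour. KO columns are above 1 and WT columns below 1 in all classes shown, while the highest KO library differs, at 1.56 in KO replicate 1 for interferon and innate sensing and 1.82 in KO replicate 3 for the P450 class.

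The classes differed in which KO library was highest. The class median of interferon and innate sensing was 1.56, 1.29 and 1.39 in KO replicates 1 to 3, against 0.777, 0.551 and 0.702 in WT replicates 1 to 3. The class median of cell cycle genes was 1.34, 1.62 and 1.19 in KO, against 0.713, 0.707 and 0.758 in WT, and that of the P450 class was 1.40, 1.59 and 1.82 in KO, against 0.343, 0.529 and 0.550 in WT. So KO replicate 1 led the first class, KO replicate 2 the cell cycle class and KO replicate 3 the P450 class. Lipid handling was more even, at 1.35, 1.44 and 1.44 in KO, against 0.656, 0.648 and 0.585 in WT.

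A genome position by symbol was found in GENCODE for 157 members, of which 151 were protein coding. The share of measured rows that were members was highest on chromosome 19, at 12 of 428 (2.80%), and lowest among the autosomes on chromosome 8, at 2 of 657 (0.304%). On the Y chromosome it was 0 of 4. Within 500000 bases of each other lay 10 pairs of members, including *Zfp955b* and *Zfp101* on chromosome 17. Of the 164 members, 7 stood under a name shared by several rows or turned into a date, and 1, *C330018D20Rik*, matched few reads, at most 8 whole reads in every library within 0.1 of a read. That was so in 283 of the rows above 0 in all libraries. For *Fam120b* and *Cyp2a22*, as for *Cidec*, the other row of the same name did not meet the rule, and the other *Fam120b* row had 0.856, 0.948 and 1.03 in KO, against 0.954, 1.07 and 1.08 in WT.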

How the data were processed

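Polyadenylated RNA of 3 liver libraries labelled KO and 3 labelled WT was compared. The values deposited by the authors are on the scale of a linear ratio. No value exceeds 7, no row sums to more than 7 and 99 rows sum to 7 within 1e-09, so each was read, from the values alone, as expression over the gene's mean across 7 libraries, 1 of them not analysed here. Per the submitters' processing notes, STAR 2.10, R 4.0.5 and mm10 were used, in roles not stated, and the kit is named in the labels' protocols. The counter, its strand setting and the scaling between libraries are not stated in the sources used here, and total depth is unknown.

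Of 12792 rows, 189 had no value, 193 had a 0 and 12410 entered the margin rule. Members, gene lists and classes were chosen with earlier results of these data known. Named genes are the 15 members with the largest margins, up to 4 per list with at least 2 members, the 3 rows on each side of the threshold and Akr1d1, leaving out predicted, Rik, shared, date and few-read names, and others are said to be named later. Some members are counted but not reported by name here. As background, limma 3.58.1 (R 4.3.3, no mean trend, Benjamini-Hochberg adjusted p under 0.05) was fitted to log2(value + 0.1) for the 12578 rows above 0 in at least 3 libraries, which understates changes of low values, and was tested on simulated data. Relative depth came from whole-read steps in 191 rows with a 0, with KO replicate 1 paired with each other library. Of the rows above 0 in both libraries of a pair, 80 to 105 per pair, 26.7% to 47.4% matched. List means are means of the ratios over the measured genes of a list, members under a name of their own included. Alternatives were other margins, median scaling, filters, pseudocounts, a mean trend, a block and each library left out. Python 3.11.15, pandas 2.3.3, numpy 2.4.6 and matplotlib 3.10.9 were used, with positions from GENCODE M21 and promoters from RefSeq.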

Additional observations from a re-analysis of the deposited data

How the results depend on the processing

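The count of 164 was 72 at a margin of 1.5 and 21 at a margin of 2, and the highest mixed count of 48 was 95 at a margin of 1.2, 20 at 1.5 and 8 at 2. With a library left out the count ranged between 239 and 378, which follows from asking for fewer comparisons. Median scaling gave 170 rows, 163 of them members, and the count was 163 without few-read rows, 157 without shared and date names and 245 at a margin of 1.2. The limma count of 2 was 0 without a pseudocount in rows above 0 in all 6 (804 higher and 691 lower at an unadjusted p under 0.05), 0 with a mean trend (850 and 723), and 1 with the replicate block, and it ranged between 1 and 4 with a library left out. Same-numbered KO and WT libraries had correlations of deviations of -0.02, -0.002 and 0.09, while pairs with unlike numbers ranged between -0.0769 and 0.0817. With 3 libraries per group these values cannot decide whether same-numbered libraries were handled together, and pairing was not tested. The direction of the 45 named folds is fixed by the choice of genes, and under 7 other settings each moved by less than the replicate spread. These settings left out 1 library each or divided by library medians of 0.987 to 1.00. They could hardly move a fold further than that spread, so no stability is read from this. Depth is unknown, and low values limit genes such as those that match few reads.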

Other observations

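Rows with a 0 could not be members, and 21 of them otherwise met the margin rule. In 13 of these 1 WT library was at 0, in 5 it was 2 WT libraries, and in 3, *Tnni2*, *Hotairm1* and *4930511A08Rik*, all WT libraries were listed at 0. *A1bg*, a female-biased liver gene, was listed at 1.99, 0.918 and 3.71 in KO replicates 1 to 3, against 0.194, 0 and 0 in WT replicates 1 to 3. *Hotairm1*, a non-coding RNA of the HoxA cluster, was listed at 1.26, 4.81 and 0.936 in KO, against 0 in each WT library. *Cenph*, a kinetochore gene, was listed at 1.85, 1.56 and 1.5 in KO, against 0.659, 1.11 and 0 in WT, and *Bcl2a1a*, a survival gene of leukocytes, at 1.09, 2.58 and 1.06 in KO, against 0, 0 and 0.738 in WT, and both match few reads. The KO values of these genes were uneven in *Hotairm1* and *A1bg* and close together in *Cenph*. These genes were chosen after their values were seen.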
